A study of Homo sapiens with 24 samples.

Results

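The 10 cyclin genes CCND1, CCND3, CCNE1, CCNE2, CCNA2, CCNB1, CCNB2, CCNT1, CCNL1 and CCNL2 were followed at the level of single splice sites in HCT116 cells, an established human colorectal carcinoma line. Members were taken as every measured junction on the strand and within the GRCh37 span of these genes, which gave 1217 rows of 1823643 in all and 10 genes of 14415. The rows comprised 405 exon-intron boundaries, of which 162 belonged to the 81 introns of the canonical transcripts, and 812 spliced rows. Among the spliced rows were 83 exon-skipping junctions, that is, junctions joining exons of a canonical transcript that are not neighbours.

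Cyclins are the regulatory subunits that activate cyclin-dependent kinases (CDKs). D-type cyclins with CDK4 or CDK6 start the inactivation of the retinoblastoma protein, cyclin E with CDK2 drives entry into S phase, and cyclins A2 and B with CDK2 or CDK1 carry the cell through S phase, G2 and mitosis. Cyclins T1 and L1/L2 do not drive the cycle: cyclin T1 with CDK9 forms the elongation factor P-TEFb, and cyclins L1 and L2 with CDK11 act in pre-mRNA splicing.

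PolyA RNA was sequenced from HCT116 cells expressing either wild-type (WT) PHF5A or PHF5A Y36C, a variant of a subunit of the SF3b complex that recognises the branch point of introns. Each line was treated with the solvent DMSO or with E7107, a pladienolide derivative that binds SF3b, giving 4 groups of 6 samples. The PHF5A forms were overexpressed in parental cells, so both lines also kept their endogenous PHF5A, and the labels give no dose or duration of treatment. The questions were how E7107 changed splicing in each line, whether the lines differed in DMSO, and whether the effect of E7107 differed between the lines.

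Each value is a percent spliced in (PSI), the share of reads at a splice site that used one junction or crossed the boundary unspliced. A boundary PSI is therefore a measure of intron retention, taken separately at the donor (5′ end) and the acceptor (3′ end) of an intron. PSI is a share, so more unspliced and less spliced RNA cannot be told apart, nor can a change in all cells from a change in some. Read counts are unknown, and coverage can be judged only by how many splice sites had any read, which ranged from 336249 to 340081 in the DMSO samples and from 328458 to 331604 in Y36C with E7107 but from 281164 to 283548 in WT with E7107. The part of this lower coverage in the results for WT with E7107 was not tested. Tests were run on the natural-log odds of PSI across all rows with limma, and a row was called at a Benjamini-Hochberg adjusted p of 0.05 or less. The cells of a group were treated as 6 samples before lysis, and the sources do not say whether these were grown as separate cultures, so p-values measure the spread between these samples, which may be technical.

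In WT cells E7107 raised the mean intron retention of all 10 cyclin genes, whereas in Y36C cells it raised it in 6 of the 10 and by far smaller amounts. Mean retention is the average boundary PSI over the annotated introns of a gene. Among all 10665 genes tested, 71.7% were called higher and 7.36% lower in WT, and 45.9% were called higher and 0.938% lower in Y36C. The median of the gene means over all genes was 3.36% in WT with DMSO and 12.9% in WT with E7107. In Y36C the same median was 3.14% with DMSO and 4.55% with E7107. No member differed between the lines in DMSO (limma, 0 of 10 genes at an adjusted p of 0.05, and 0 of 10 at an unadjusted p under 0.05), where 0.413% of all genes were called higher and 0.300% lower in Y36C. At an unadjusted p under 0.05 the share over all genes was 14.1%. The E7107 effect was smaller in Y36C for all 10 by the interaction of genotype and treatment, against 60.4% of all genes, and in E7107 all 10 were lower in Y36C, against 64.7% of all genes.

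**Figure D1:**
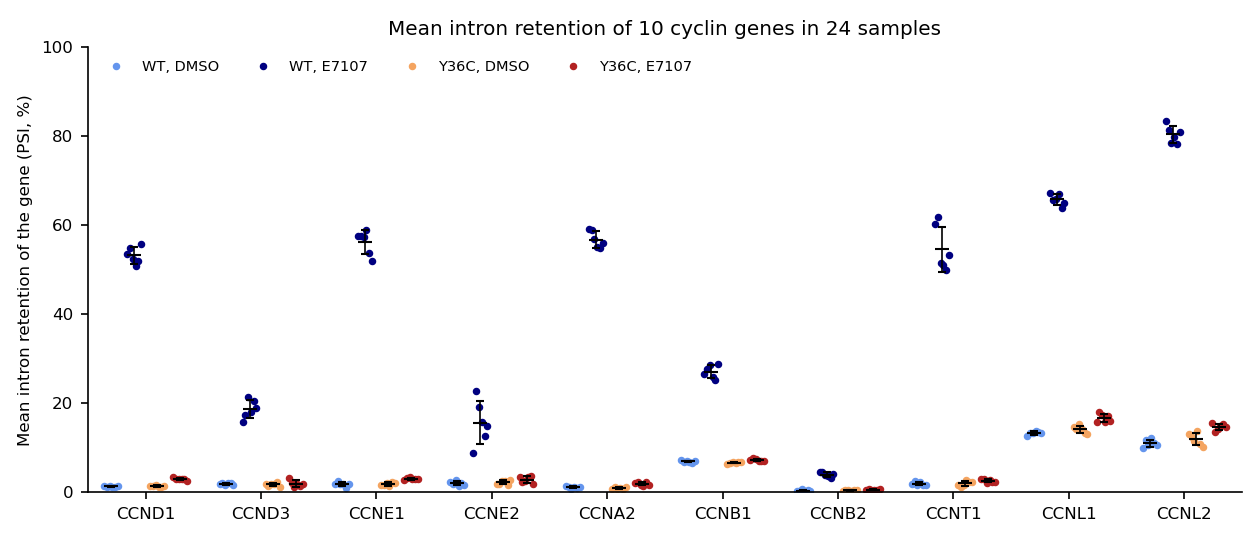
Mean intron retention of each cyclin gene (percent, y axis) in each of the 24 samples, with 6 samples per group; the horizontal mark is the group mean and the bar 1 SD. In all 10 genes every WT sample with E7107 lies above every other sample, from near 80.4% for CCNL2 down to 3.98% for CCNB2.

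The order of the genes in WT with E7107 was CCNL2, CCNL1, CCNA2, CCNE1, CCNT1, CCND1, CCNB1, CCND3, CCNE2 and CCNB2. CCNA2, CCNE1, CCNT1 and CCND1 lay between 53.2% and 56.8%, and each overlapped with its neighbour in the range over samples, as did CCND3 and CCNE2. The other steps in the order showed no overlap between samples. The order with DMSO was different: CCNL1 at 13.3% ± 0.379 (SD, n = 6) and CCNL2 at 11% ± 0.813 were the highest in WT, CCNB1 followed at 6.95% ± 0.179, and CCNB2 was the lowest at 0.415% ± 0.148. The place of CCNB1 rested on 1 boundary outside its canonical introns: over its 16 canonical boundaries the mean in WT with DMSO was 1.32%, below CCND1, CCNE1, CCND3, CCNT1 and CCNE2 at 1.34% to 2.06%.

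The D-type cyclins, which partner CDK4 and CDK6 in G1, differed widely from each other. CCND1 retention in WT had a lowest, median and highest value of 1.26%, 1.31% and 1.53% with DMSO and of 50.8%, 52.9% and 55.9% with E7107. In Y36C the same gene ran from 1.11% through 1.38% to 1.69% with DMSO and from 2.62% through 3.01% to 3.36% with E7107. The treated and control samples of CCND1 did not overlap in either line. The change was 3.88 ± 0.05 log odds (SE) in WT (limma, adjusted p = 1.27e-14) and 0.53 ± 0.05 in Y36C (limma, adjusted p = 2.66e-06). CCND3 reached only 18.7% ± 2.08 in WT with E7107 from 1.94% ± 0.175, a change of 2.09 log odds (limma, adjusted p = 1.03e-11). In Y36C, CCND3 was at 1.79% ± 0.330 with DMSO and 1.99% ± 0.710 with E7107, which did not pass the test (limma, adjusted p = 0.687).

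Cyclin E1 and cyclin E2, both partners of CDK2, also differed. CCNE1 in WT had a lowest, median and highest retention of 1.08%, 1.84% and 2.48% with DMSO and of 52.0%, 57.4% and 58.9% with E7107. In Y36C, CCNE1 went from 1.92% ± 0.378 to 3.10% ± 0.224, a rise of 0.36 log odds (limma, adjusted p = 0.000448), and the 6 treated samples lay above the 6 controls. From donor boundaries alone the rise was 0.15 log odds and was not called (limma, adjusted p = 0.3). The 6 WT samples of CCNE2 with E7107 spread from 8.86% through 15.4% to 22.7%, against 1.48% to 2.75% with DMSO. The 2 groups did not overlap (1.82 log odds, limma, adjusted p = 2.15e-07). Its values in Y36C were 2.25% ± 0.471 with DMSO and 2.87% ± 0.722 with E7107 (limma, adjusted p = 0.176).

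Among the S phase and mitotic cyclins, mean retention in WT with E7107 was higher in CCNA2 than in the B-type genes. In the other 3 groups CCNB1 was above CCNA2 over all its boundaries. Over canonical boundaries alone CCNB1 was above CCNA2 with DMSO, at 1.32% against 1.15% in WT and 1.10% against 0.956% in Y36C. In Y36C with E7107 it was below CCNA2 on that measure, at 1.63% against 1.93%. CCNA2 in WT ran from 0.851% through 1.20% to 1.34% with DMSO and from 54.8% through 56.4% to 59.0% with E7107. In WT with DMSO 17.3% of all genes had a lower mean retention than CCNA2, and with E7107 92.5% did. In Y36C it rose from 0.956% ± 0.209 to 1.93% ± 0.360 (0.41 log odds, limma, adjusted p = 0.000362), with no overlap between samples. CCNB1 rose in WT from 6.95% ± 0.179 to 27.1% ± 1.49 (1.51 log odds, limma, adjusted p = 5.04e-12). Of its 17 boundaries, 16 belong to the canonical introns, which alone averaged 1.32% with DMSO and 22.7% with E7107 in WT and 1.10% and 1.63% in Y36C. The log odds given for CCNB1 include the other boundary. In Y36C, CCNB1 moved from 6.71% ± 0.175 to 7.27% ± 0.243, a change of 0.08 log odds (limma, adjusted p = 0.0368) that was not called when the acceptor boundaries alone were averaged (adjusted p = 0.116) or with the replicate number as a block (adjusted p = 0.114). CCNB2, the second mitotic B-type cyclin, stood apart with 0.253%, 0.373% and 0.657% as its lowest, median and highest values in WT with DMSO and 3.15%, 4.00% and 4.64% with E7107. That rise was called as well (1.29 log odds, limma, adjusted p = 1.82e-09), and 19.9% of all genes had a lower mean than CCNB2 in WT with E7107. In Y36C, CCNB2 was at 0.465% ± 0.129 and 0.592% ± 0.0916 (limma, adjusted p = 0.159).

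The cyclin L genes held the highest values, while CCNT1 lay near CCNA2 and CCND1. CCNT1, the subunit of P-TEFb, had a lowest, median and highest retention of 1.60%, 1.80% and 2.62% in WT with DMSO and of 49.9%, 52.4% and 61.7% with E7107. In Y36C it was at 2.01% ± 0.567 with DMSO and 2.61% ± 0.318 with E7107, short of the threshold (0.20 log odds, limma, adjusted p = 0.0842); with donor boundaries alone the same comparison was called (adjusted p = 0.0457). CCNL1 rose in WT from 12.7%, 13.3% and 13.8% as its lowest, median and highest values to 63.8%, 65.8% and 67.2%. CCNL2 went from 10.01%, 10.8% and 12.2% to 78.2%, 80.4% and 83.5%, above 98.2% of all genes. In Y36C, CCNL1 moved from 14.2% ± 0.808 to 16.7% ± 0.955 (0.18 log odds, limma, adjusted p = 0.00311). CCNL2 moved in Y36C from 12% ± 1.37 to 14.7% ± 0.714 (0.23 log odds, limma, adjusted p = 0.00552). Over its canonical boundaries alone CCNL2 averaged 8.05% with DMSO and 79.1% with E7107 in WT, and 7.82% and 9.89% in Y36C. In Y36C the treated and control samples of CCNL2 overlapped and those of CCNL1 did not.

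Single introns were examined next. Of the 162 boundaries of canonical introns, 156 had reads in all 12 WT samples and 135 passed the filter, which asked 1 or more of the compared groups to have no sample at 0%, 61 of them only through the E7107 group. In WT, 131 boundaries were called higher and 0 lower (limma), where 73.9% of the canonical boundaries of all genes were called higher and 5.67% lower. At an unadjusted p under 0.05 there were 131, or 97.0%, against 82.0% of all. Without the filter on PSI, 138 of 156 were called higher, against 43.7% of all. The median change over the 156 boundaries was 39.7 percentage points. In 129 every E7107 sample lay above every DMSO sample, a count that was not made over all genes. All tested boundaries of 9 genes were called: 8 of 8 in CCND1, 8 of 8 in CCND3, 19 of 19 in CCNE1, 14 of 14 in CCNA2, 16 of 16 in CCNB1, 11 of 11 in CCNB2, 14 of 14 in CCNT1, 20 of 20 in CCNL1 and 20 of 20 in CCNL2. CCNE2 was the exception with 1 of 5 called, the acceptor of intron 10, where PSI went from 3.75%, 4.72% and 8.79% (lowest, median, highest) to 11.1%, 40% and 50%.

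**Figure D2:**
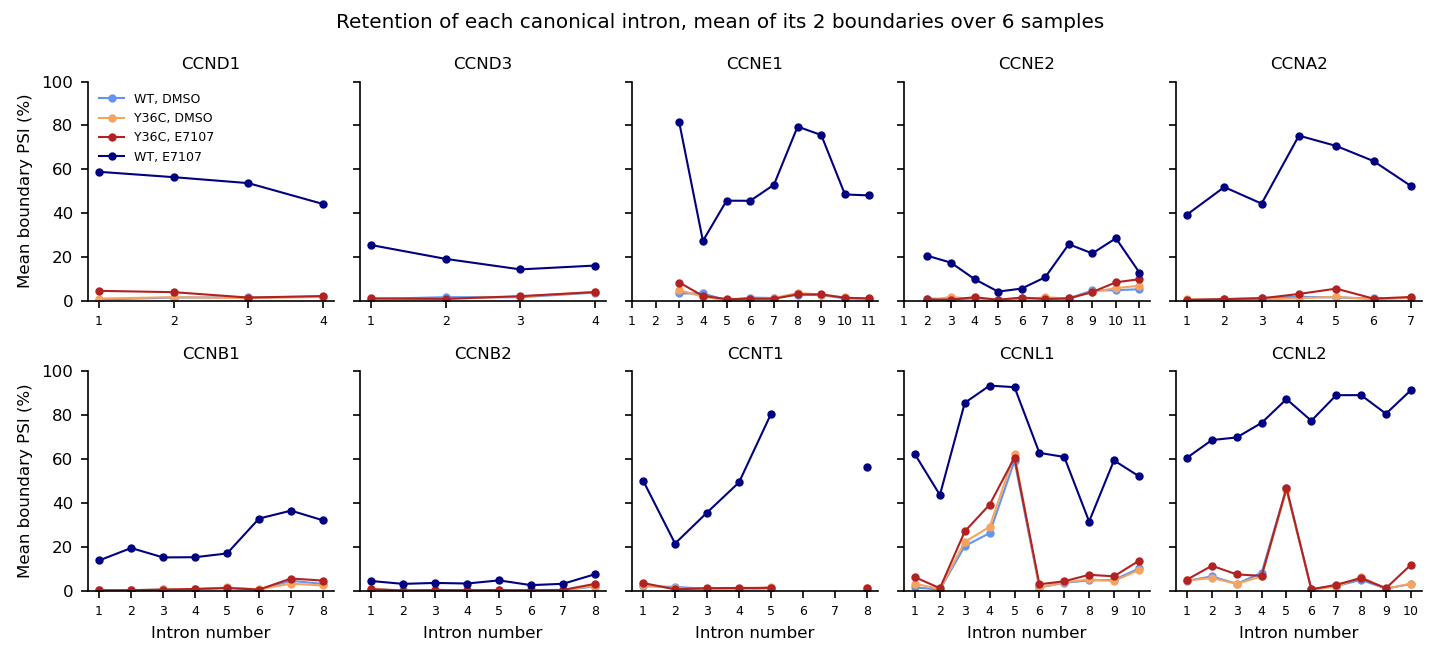
Retention of each canonical intron (mean of its donor and acceptor boundary PSI over 6 samples, percent, y axis) by intron number, 1 panel per gene and 1 line per group; introns without reads at both boundaries in all 24 samples are left blank. The WT line with E7107 runs above the other 3 throughout, and CCNL1 introns 3 to 5 and CCNL2 intron 5 stand out with DMSO.

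Both boundaries had reads in all 24 samples in 76 of the 81 introns, and the change in WT ranged over these from 2.24 to 88.4 percentage points with a median of 42.2. The range differed between genes: the 8 introns of CCNB2 changed by 2.24 to 5.59 points, the 8 of CCNB1 by 13.7 to 32.4 points and the 10 of CCNL2 by 40.6 to 88.4 points. CCNE1 was less even, with 81.3% retention of intron 3 and 27.3% of intron 4 in WT with E7107. In CCNT1, intron 5 reached 80.6% and intron 2 only 21.5%. Across the 76 introns, the Spearman correlation of the WT change was -0.23 with intron length, 0.17 with GC content, -0.13 with the pyrimidine content of the 28 bases before the terminal AG, and 0.42 with retention in WT with DMSO. These are descriptions only, since introns of 1 gene share a transcript and all share the libraries.

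The acceptor regions of the 3 introns with the largest mean change in WT, all in CCNL2, and of the 3 with the smallest, all in CCNB2, are shown because they span the range of the response. Each line gives the last 40 bases of an intron, 5′ to 3′ on the strand of the gene, from GRCh37, with the terminal AG in capitals.
CCNL2 intron 10 acceptor: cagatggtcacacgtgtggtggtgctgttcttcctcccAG
CCNL2 intron 7 acceptor: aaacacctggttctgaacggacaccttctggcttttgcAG
CCNL2 intron 8 acceptor: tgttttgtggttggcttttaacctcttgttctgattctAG
CCNB2 intron 6 acceptor: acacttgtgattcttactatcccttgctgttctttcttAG
CCNB2 intron 7 acceptor: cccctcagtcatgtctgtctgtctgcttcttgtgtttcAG
CCNB2 intron 2 acceptor: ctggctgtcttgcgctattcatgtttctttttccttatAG

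The CCNL2 windows lie on the minus strand at chr1:1322963-1323002, chr1:1325752-1325791 and chr1:1323446-1323485, and the CCNB2 windows on the plus strand at chr15:59409387-59409426, chr15:59415676-59415715 and chr15:59399716-59399755. CCNL2 introns 10, 7 and 8 changed by 88.4, 87.0 and 84.3 points in WT, with 67.9%, 64.3% and 75% pyrimidines in the 28 bases before the AG. CCNB2 introns 6, 7 and 2 changed by 2.24, 2.79 and 2.96 points, with 85.7%, 75% and 78.6% pyrimidines. These 6 introns were picked from the ends of the range, so the difference in pyrimidines between the sets carries no test, and over all 76 introns the correlation was -0.13. Length did not separate the sets, which held introns of 87 to 2164 bases in CCNL2 and of 106 to 6148 bases in CCNB2.

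The boundary with the largest change in log odds is given for each gene in WT. At the CCND1 intron 1 donor PSI rose from a median of 0.691% (0.340% to 0.803%) to 69.6% (67.5% to 70.6%), a change of 4.93 ± 0.11 log odds (SE; limma, adjusted p = 6.16e-11). The CCNE1 intron 3 acceptor rose from a median of 4.09% to 86.8%, and the CCNT1 intron 5 acceptor from 1.03% to 88.6% with 1 treated sample as low as 61.1%. At the CCNL2 intron 9 donor the median went from 0% to 80.8%, and at the CCNL1 intron 1 acceptor from 0.840% to 63.2%. CCNA2 changed most at the intron 5 donor, from a median of 0.966% to 71.0%. In CCND3 the largest change, at the intron 1 acceptor, went from 0.417% to 27.6%, and in CCNB2 the largest, at the intron 5 acceptor, went from 0% to 5.40%. In all 8 of these boundaries the treated and control samples did not overlap. For CCNB1 the largest change fell on a donor inside intron 1, at position 68463313 of chromosome 5. Its boundary PSI was 0% in all 6 samples with DMSO and 70.0% to 91.2% with E7107, and among the Y36C samples it was above 0% in 1 with DMSO, at 50%. This donor was little used. In WT its junction took a mean of 0.357% at the exon 2 acceptor with DMSO and 0.942% with E7107. Reads that cross it unspliced lie in intron 1, whose mean retention in WT was 0.098% with DMSO and 13.8% with E7107. At the canonical intron 6 donor of CCNB1 the median in WT rose from 0.370% to 33.5%.

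Some introns of the cyclin L genes were already retained with DMSO. CCNL1 intron 5 had an acceptor PSI of 62.6% ± 2.98 in WT and 64.7% ± 3.76 in Y36C with DMSO, and CCNL2 intron 5 had one of 75.1% ± 4.22 and 78.3% ± 2.37. E7107 raised both in WT, to 91.6% ± 1.02 (limma, adjusted p = 3.88e-08) and 94.6% ± 2.91 (limma, adjusted p = 3.41e-05). In Y36C with E7107 they stood at 64.5% ± 5.61 and 84.8% ± 4.56, and neither passed the test (limma, adjusted p = 0.984 and 0.0828), although CCNL2 intron 5 was called on PSI itself (adjusted p = 0.0405). These are acceptor values. At the CCNL2 intron 5 donor PSI was lower, at 17.4% to 19.6% in WT with DMSO. In Y36C it was 10.6% to 18.2% there with DMSO and 5.29% to 14.0% with E7107. Over both boundaries this intron averaged 46.7% in WT with DMSO, and 45.9% with DMSO and 46.8% with E7107 in Y36C. CCNL1 introns 3 and 4 averaged 20.3% and 26.2% over both boundaries in WT with DMSO. With E7107 they reached 85.6% and 93.5%, the latter being the highest mean of the 76 introns.

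In Y36C cells the retention response was small. Of 93 canonical boundaries that passed the filter, 19 only through the E7107 group, 21 were called higher and 0 lower (limma), where 30.0% of the canonical boundaries of all genes were called higher and 0.957% lower. At an unadjusted p under 0.05 there were 33, or 35.5%, against 44.5% of all. The members called were 22.6% of those tested, below the share over all genes. Without the filter 20 of 162 were called higher, or 12.3%, above the 9.10% of all. Which side the members fell on thus depended on the filter. The median change over all 162 boundaries was 0.425 percentage points. In 16 all treated samples lay above all controls, again a count that was not made over all genes. CCND3, CCNB2 and CCNE2 had none called among 4, 2 and 7 tested.

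The 21 called boundaries lay in 14 introns of 7 genes, and 12 of these introns formed neighbouring pairs in 6 of the genes. This count is given with no test and was not made over all genes. In CCND1 they were the donors and acceptors of introns 1 and 2, on either side of exon 2, with the intron 1 donor rising from 1.13% ± 0.275 to 5.36% ± 0.550 (limma, adjusted p = 2.68e-05). The CCNA2 calls were both ends of introns 4 and 5, on either side of exon 5, led by the intron 5 acceptor at 1.92% ± 1.16 and 6.80% ± 2.18 (limma, adjusted p = 0.00443). In CCNB1 the calls flanked exon 8, at both ends of introns 7 and 8, led by the intron 8 donor at 2.19% ± 0.555 and 5.07% ± 1.08 (limma, adjusted p = 0.00309).

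The others lay in CCNE1 and in the genes of cyclins L and T1. CCNE1 was called at the acceptors of introns 2 and 3, with the intron 2 acceptor at 2.80% ± 1.84 and 16.1% ± 7.20 (limma, adjusted p = 0.00398). CCNL1 was called at the acceptors of introns 3 and 4, and CCNL2 at those of introns 2 and 3. The CCNL1 intron 4 acceptor went from 31.2% ± 3.23 to 43.8% ± 7.07 (limma, adjusted p = 0.0237). CCNL2 was also called at both ends of intron 10, where the donor rose from 2.53% ± 1.71 to 11% ± 2.29 (limma, adjusted p = 0.00228) and where its median in WT went from 2.97% to 92.1%. In CCNT1 the call was the intron 7 donor, from 6.93% ± 4.90 to 19.9% ± 6.76 (limma, adjusted p = 0.0187); this site had no reads in 1 of the WT samples with E7107. With the replicate number as a block the calls at the acceptors of CCNB1 intron 7, CCNL1 intron 3 and CCNL1 intron 4 and at the donor of CCNT1 intron 7 were lost (limma, adjusted p = 0.0978, 0.135, 0.0946 and 0.0752).

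Between the lines treated with E7107, 131 of 136 canonical boundaries were lower in Y36C and 1 higher (limma), against 65.1% and 11.9% of all. Of the 136, 54 passed the filter only through the WT group with E7107, where they were high. Without the filter 138 of 156 were lower, against 40.6% of all. For the interaction the counts were 130 lower and 1 higher of 136, against 57.0% and 9.06% of all, and without the filter 137 of 156 were lower, against 34.6% of all. The strongest interactions were at the CCNT1 intron 5 acceptor, -5.74 ± 0.52 log odds (SE; limma, adjusted p = 3.18e-09), and at the CCNL2 intron 6 donor, -5.65 ± 0.28 (limma, adjusted p = 1.61e-13). The only positive one, at the CCNE2 intron 11 donor, had a median of 0% in WT with E7107 and 1 sample there at 33.3%, and it was not called on PSI itself (adjusted p = 0.554) or without the filter (adjusted p = 0.0668). Over all boundaries of the 10 genes, canonical or not, 136 of 141 were called higher in WT (limma, 70.8% of all, with 5.78% lower) and 21 of 110 in Y36C (26.8%, with 1.26% lower). In DMSO 0 of 106 were called (limma), against 0.0877% of all called higher and 0.0778% lower. At an unadjusted p under 0.05 there were 10 of 106 in DMSO, or 9.43%, against 11.5% of all. In E7107 the count was 135 lower and 1 higher in Y36C of 141, against 62.9% and 11.7% of all, and for the interaction 134 lower and 1 higher of 141, against 54.9% and 8.94%. The comparisons share samples: the WT E7107 group enters the effect in WT, the contrast of the lines in E7107 and the interaction.

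In DMSO no canonical boundary and no exon-skipping junction of the cyclin genes differed between WT and Y36C at an adjusted p of 0.05 or less (limma, 0 of 90 and 0 of 10), where 0.0921% of canonical boundaries of all genes were called higher and 0.0829% lower, and 0.245% and 0.0511% of the junctions. At an unadjusted p under 0.05 there were 8 boundaries and 1 junction, or 8.89% and 10%, against 11.9% and 16.8% of all. The other settings of the fit called 0 as well. The only member row called in DMSO was a CCNL1 junction from the exon 10 donor to an alternative acceptor at position 156864397 of chromosome 3. It had a median PSI of 2.33% (0.885% to 3.33%) in WT and of 0% (0% to 0.826%) in Y36C (limma, adjusted p = 0.0497), and it was not called with the block, on PSI or without the filter (adjusted p = 0.0751 to 0.273).

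Exon skipping changed with E7107 in both lines. A junction has a PSI at its donor and at its acceptor, and it was counted by the end with the smaller p. In WT, 18 of 24 tested exon-skipping junctions were called higher with E7107 and 1 lower (limma), against 34.7% and 15.6% of those of all genes. The filter favours such junctions, since 32 of the 48 donor and acceptor values that passed it did so only through the E7107 group. Without it 22 of 79 were called higher, or 27.8%, against 8.93% of all. In Y36C, 8 of 13 were called higher and 0 lower, against 54.7% and 1.69% of all. Here 10 of 26 values passed only through the E7107 group, and without the filter 8 of 47 were called higher, or 17.0%, against 10.9% of all. Between the treated lines, 6 of 27 were higher and 16 lower in Y36C (47.8% and 19.9% of all). Of the 53 donor and acceptor values tested there, 30 passed the filter only through WT with E7107 and 9 only through Y36C with E7107. The interaction, by signed log odds, was called in 7 of 27 as larger in Y36C and in 15 as larger in WT (38.2% and 16.7% of all). Without the filter 7 of 81 were higher and 19 lower between the treated lines, against 12.7% and 5.78% of all. For the interaction without the filter 5 of 83 were larger in Y36C and 19 in WT, with no share made over all genes. With a smaller offset of 0.1 points 4 junctions in place of 7 had an interaction larger in Y36C, and 16 in place of 15 one larger in WT. Of the 8 junctions called in Y36C, 2 were also called in WT, CCNB1 exon 8 in the same direction and CCNT1 exon 7 in the opposite one. CCNB2 and CCNE2 had none tested.

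**Figure D3:**
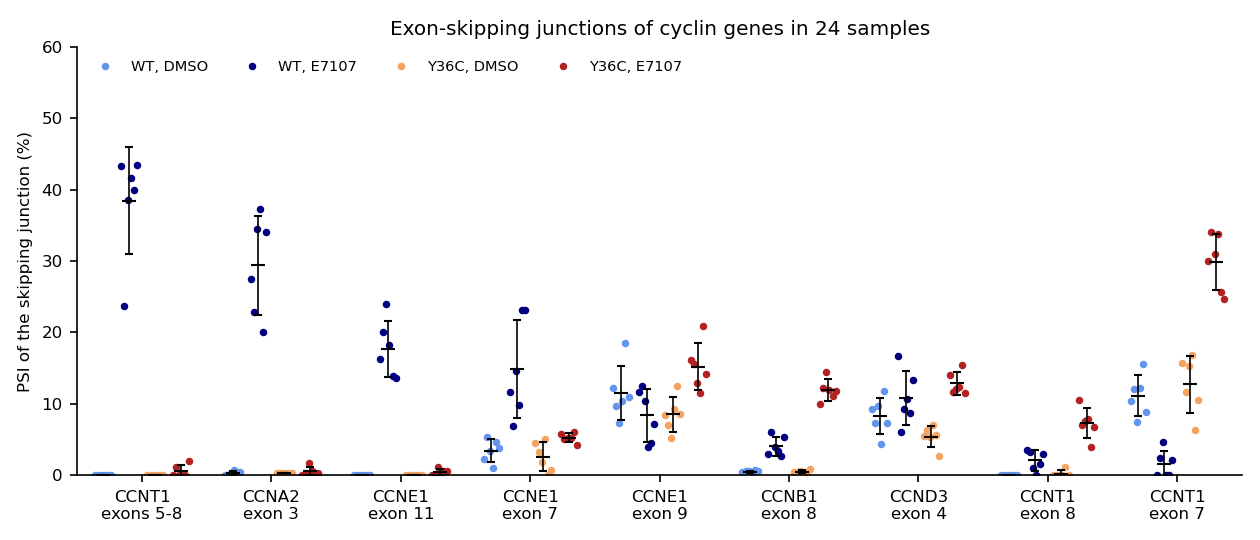
PSI of 9 exon-skipping junctions (percent, y axis) in each of the 24 samples, at the donor or acceptor named in the text; the horizontal mark is the group mean and the bar 1 SD. The first 4 are highest in WT with E7107, and CCNB1 exon 8, CCNT1 exon 8 and CCNT1 exon 7 are highest in Y36C with E7107.

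In WT the largest increase was a CCNT1 junction from exon 4 to exon 9 that left out exons 5 to 8. Its PSI at the donor was 0% in all 6 samples with DMSO and 23.7%, 40.8% and 43.5% (lowest, median, highest) with E7107, a change of 4.14 ± 0.16 log odds (SE; limma, adjusted p = 6.47e-10). In Y36C it was 0% in all 6 controls and at most 2.02% with E7107. Skipping of CCNA2 exon 3, which has 113 bases, rose in WT from a median of 0.353% to 30.8% at the acceptor (limma, adjusted p = 5.09e-09) and was at 0.315% in Y36C with E7107. CCNE1 exon 11 was skipped in 0% of reads in all WT controls and in 13.6% to 24.0% with E7107 (median 17.2%; limma, adjusted p = 1.66e-09). None of these 3 junctions is in the annotation. All 3 had WT controls at 0%, so they passed the filter only through the E7107 group. They were also named for the size of their increase, so their p-values are not independent of that choice.

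Smaller increases in WT covered several more exons. CCNE1 exon 7 went from a median of 3.58% to 13.1% at the donor (limma, adjusted p = 0.000781), with the interaction not called (adjusted p = 0.218) except on PSI itself (adjusted p = 0.0176). CCNA2 exon 7 went from 0% to 6.19% at the acceptor, CCNB1 exon 3 from 0% to 5.28% at the donor and CCNB1 exon 5 from 1.90% to 8.05% at the donor. Skipping of exons 4 and 5 of CCNL1 together reached a median of 3.87% and that of CCNL2 exon 10 one of 2.45%, from 0% in every WT control. The CCND1 junction that left out exons 2 and 3 stayed under 1% (median 0.357%, limma, adjusted p = 0.0433) and was not called with the block (adjusted p = 0.139) or on PSI (adjusted p = 0.491).

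The junctions called higher in Y36C with E7107 are described next. Skipping of CCNB1 exon 8, which has 111 bases, is annotated in a protein-coding transcript. Its PSI went at the acceptor from 0.238%, 0.434% and 0.819% (lowest, median, highest) to 9.95%, 11.8% and 14.5%, a change of 2.30 ± 0.11 log odds (SE; limma, adjusted p = 6.03e-07). In WT the same junction went from a median of 0.514% to 3.68% (limma, adjusted p = 7.77e-06). The groups did not overlap in either line, and the effect was larger in Y36C by 1.06 ± 0.16 log odds (limma interaction, adjusted p = 1.01e-05). At the acceptor of intron 7, before this exon, the boundary PSI had a median of 40.6% in WT and 6.55% in Y36C with E7107. Rows at one splice site sum to 100%, so skipping and retention at a shared site are not independent.

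The acceptors of the introns around CCNB1 exon 8 are shown because both the intron boundaries and the skipping of this exon were called in Y36C. They are the last 40 bases of intron 7 (chr5:68473026-68473065) and of intron 8 (chr5:68473311-68473350) on the plus strand of GRCh37, with the AG in capitals. Intron 7 has 64.3% pyrimidines in the 28 bases before its AG and intron 8 has 82.1%.
CCNB1 intron 7 acceptor: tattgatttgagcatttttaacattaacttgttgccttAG
CCNB1 intron 8 acceptor: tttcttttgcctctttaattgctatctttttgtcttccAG

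In CCNT1 the share of exon 7 skipping moved in opposite directions with E7107 in WT and Y36C. Skipping of exon 7, an exon of 164 bases whose skipping is annotated, had a median PSI at the acceptor of 11.2% (7.48% to 15.6%) in WT with DMSO and of 1.06% (0% to 4.65%) with E7107. In Y36C the median was 13.4% (6.32% to 16.8%) with DMSO and 30.5% (24.7% to 34.1%) with E7107. At the acceptor the treated samples lay wholly below the controls in WT and wholly above them in Y36C. The changes there were -1.89 ± 0.33 log odds in WT (SE; limma, adjusted p = 0.00028) and 1.06 ± 0.18 in Y36C (limma, adjusted p = 0.00127), with an interaction of 2.95 ± 0.38 (limma, adjusted p = 7.41e-07). At the donor of this junction the WT groups overlapped, with a treated sample at 8.70% and a control at 6.67%. The Y36C groups did not overlap at the donor, with controls up to 15.1% and treated samples from 22.0%. Each PSI is a share that counts unspliced reads at the same site, and all 14 tested CCNT1 boundaries were called higher in WT. The part of unspliced reads in the fall of exon 7 skipping in WT was not tested. The intron 7 donor is not a site of this junction. Its boundary PSI with E7107 had a median of 93.0% (90.9% to 96.4%, 5 samples) in WT and 21.9% (8.33% to 26.9%) in Y36C. Exon 8 of CCNT1, with 71 bases, was skipped at a median of 0% in Y36C with DMSO and 11% with E7107 at the donor (limma, adjusted p = 6.98e-06), while the WT samples with E7107 that had reads there gave a median of 3.70%. At the acceptor of this junction the interaction was 1.02 ± 0.30 log odds (SE; limma, adjusted p = 0.0074), not called with a smaller offset (adjusted p = 0.153). In WT these exons were among those left out by the junction from exon 4 to exon 9.

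The windows of CCNT1 introns 6 and 7, whose acceptors open exons 7 and 8, are given for these 2 exons. They lie on the minus strand at chr12:49089946-49089985 and chr12:49089613-49089652 of GRCh37, with the AG in capitals.
CCNT1 intron 6 acceptor: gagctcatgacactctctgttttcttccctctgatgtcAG
CCNT1 intron 7 acceptor: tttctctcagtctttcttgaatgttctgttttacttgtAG

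The remaining increases in Y36C were found in CCND3, CCNE1, CCND1 and CCNL2. CCND3 exon 4 went from a median of 5.52% (2.65% to 6.94%) to 12.2% (11.5% to 15.4%) at the acceptor (limma, adjusted p = 0.00119), while WT moved from 8.30% to 9.93% without passing the test (adjusted p = 0.323). CCND3 exon 2 went from 2.35% to 10.6% at the donor (limma, adjusted p = 0.00537), although the mean retention of CCND3 was not called in Y36C. The interactions of these junctions were near the threshold: 0.0402 for exon 4 at the acceptor, 0.0583 for exon 2 at the donor and 0.0349 for exon 2 at the acceptor (limma, adjusted p). With a smaller offset none of them was called (adjusted p = 0.0702 for exon 4 and 0.079 for exon 2, at the acceptors). CCNE1 exon 9 went from 8.51% to 14.9% at the donor (limma, adjusted p = 0.0167), with some overlap between samples, and from 10.7% to 8.74% in WT (adjusted p = 0.21). Its interaction was called at the donor (limma, adjusted p = 0.00582) and not at the acceptor (adjusted p = 0.129). Skipping of CCND1 exon 2 rose from 0.203% to 1.46% at the donor (limma, adjusted p = 0.000471). CCNL2 exon 3 rose from 1.83% to 3.87% at the donor (limma, adjusted p = 0.0257), a call not kept with the block (adjusted p = 0.0632), and its interaction was not called (limma, adjusted p = 0.17). CCNB1 exon 8, CCND1 exon 2 and CCNL2 exon 3 were the exons for which skipping and a boundary of each flanking intron were called in Y36C.

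The cyclin L genes each carry an alternative exon inside an intron that is retained with DMSO, and the choice of splice partner at the donor before it was examined after the values had been seen. In CCNL1 the alternative acceptor in intron 3 belongs to transcripts annotated for nonsense-mediated decay and also to protein-coding ones. In CCNL2 the acceptor in intron 5 likewise has both kinds of annotation. These acceptors are shown beside the canonical ones that share their donor, because use of the alternative acceptor, read at the donor, fell in WT and rose in Y36C.
CCNL1 intron 3, alternative acceptor: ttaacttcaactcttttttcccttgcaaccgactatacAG
CCNL1 intron 3, canonical acceptor: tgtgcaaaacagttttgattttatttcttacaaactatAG
CCNL2 intron 5, alternative acceptor: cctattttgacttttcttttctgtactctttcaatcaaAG
CCNL2 intron 5, canonical acceptor: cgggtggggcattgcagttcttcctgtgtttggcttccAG

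All 4 are read on the minus strand of GRCh37, from chr3:156874873-156874912 and chr3:156870946-156870985 for CCNL1 and from chr1:1328184-1328223 and chr1:1326246-1326285 for CCNL2. The pyrimidine share of the 28 bases before the AG was 75% at the alternative and 64.3% at the canonical acceptor of CCNL1, and 78.6% and 71.4% in CCNL2. The alternative acceptors are nearer to the donor, at 1782 bases against 5709 in CCNL1 and at 592 against 2530 in CCNL2.

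**Figure D4:**
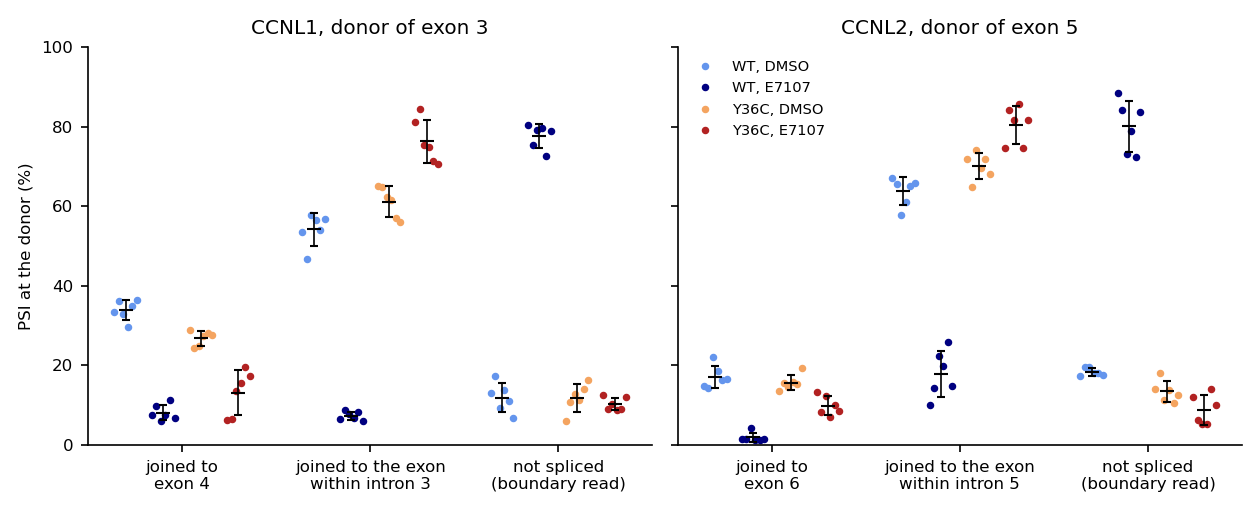
PSI at the donor of CCNL1 exon 3 (left) and of CCNL2 exon 5 (right) in each of the 24 samples, split into the canonical junction, the junction to the alternative exon and the unspliced boundary (percent, y axis); the horizontal mark is the group mean and the bar 1 SD. In both genes the alternative exon is highest in Y36C with E7107 and the unspliced boundary is highest in WT with E7107.

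At the donor of CCNL1 exon 3, the alternative exon took a median of 55.2% (46.6% to 57.7%) of reads in WT with DMSO and 7.22% (6.05% to 8.70%) with E7107. In Y36C it took 62.0% (56.1% to 65.2%) with DMSO and 75.1% (70.7% to 84.4%) with E7107. The groups did not overlap in either line, falling in WT (limma, adjusted p = 3.26e-09) and rising in Y36C (limma, adjusted p = 0.00596). The canonical junction fell in both lines, from 33.9% ± 2.50 to 8.15% ± 1.96 in WT (limma, adjusted p = 2.51e-07) and from 26.9% ± 1.85 to 13.1% ± 5.62 in Y36C (limma, adjusted p = 0.00867). The unspliced boundary rose in WT from 11.9% ± 3.67 to 77.7% ± 2.96 and was 11.9% ± 3.50 and 10.3% ± 1.61 in Y36C (limma, adjusted p = 0.671).

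CCNL2 exon 5 showed the same ordering of groups. Its alternative exon took a median of 65.3% in WT with DMSO and 17.3% with E7107, against 70.7% and 81.7% in Y36C (limma, adjusted p = 6.74e-07 and 0.0178), with no overlap between treated and control samples in either line. The canonical junction fell from 17.1% ± 2.83 to 1.91% ± 1.20 in WT and from 15.7% ± 1.93 to 9.91% ± 2.44 in Y36C (limma, adjusted p = 4.54e-07 and 0.0194). The unspliced boundary rose from 18.4% ± 0.932 to 80.1% ± 6.45 in WT and was 13.5% ± 2.71 and 8.83% ± 3.76 in Y36C (limma, adjusted p = 0.105). Both Y36C calls at this donor were lost with the replicate number as a block (adjusted p = 0.0707 and 0.0821). The interaction for the alternative exon was 3.31 ± 0.19 log odds in CCNL1 and 2.64 ± 0.23 in CCNL2 (SE; limma, adjusted p = 1.48e-12 and 1.73e-09).

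At the acceptor of CCNL1 exon 4 the alternative exon was not called in Y36C. The 2 junctions from the alternative exon into exon 4 fell in WT from 20.7% ± 3.34 and 19.1% ± 6.27 to 0.0928% ± 0.102 and 0.118% ± 0.154. In Y36C they stood at 24.1% ± 4.27 and 18.2% ± 2.56 with DMSO and at 25.7% ± 2.65 and 18.4% ± 1.97 with E7107, neither past the test (limma, adjusted p = 0.672 and 0.95). The canonical junction at this acceptor fell in Y36C from 24.2% ± 3.42 to 11% ± 5.30 (limma, adjusted p = 0.0118), and the unspliced boundary rose from 32.6% ± 5.73 to 43.6% ± 5.54 (limma, adjusted p = 0.0476), a call lost with a smaller offset, without the filter and with the block (adjusted p = 0.0746 to 0.135). At the acceptor of CCNL2 exon 6, 2 junctions annotated for nonsense-mediated decay fell in WT, from 2.21% ± 1.00 to 0.314% ± 0.770 and from 4.06% ± 1.06 to 0.344% ± 0.534 (limma, adjusted p = 0.00195 and 2.95e-05). In Y36C they stood at 2.41% ± 1.11 and 3.12% ± 1.66 with DMSO and at 1.70% ± 0.659 and 2.34% ± 1.37 with E7107, neither past the test (limma, adjusted p = 0.408 and 0.557).

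The other genes of the cyclin and CDK system were read from lists chosen with earlier results of these data known. Of 15 further cyclins, 11 were measured, and mean retention was called higher in 9 in WT and in 8 in Y36C (limma), against 71.7% and 45.9% of all genes, with median changes of 1.79 and 0.38 log odds against 0.99 and 0.23 over all genes. CCNT2, the second cyclin of P-TEFb, rose in WT from 16.9% ± 1.13 to 73.5% ± 2.03, and CCNJ rose from 3.96% to 72.2%. CCNI and CCNYL1 were not called in WT, CCNI being at 1.15% ± 0.344 with DMSO and 1.08% ± 0.252 with E7107 and CCNYL1 at 2.91% and 4.25%.

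Of 9 kinases listed as partners, all 9 were called higher in WT and 5 in Y36C, against 71.7% and 45.9% of all genes. CDK9, the partner of cyclin T1, went from 4.68% ± 0.535 to 70.5% ± 1.01 in WT and from 4.83% ± 0.928 to 12% ± 0.924 in Y36C. CDK4 went from 0.979% to 2.58% in WT and from 0.941% to 2.07% in Y36C, and its interaction was not called (limma, adjusted p = 0.0818). CDK11A and CDK11B, partners of the cyclins L and near-identical copies whose reads may have been split between them, rose in WT from 36.5% to 80.6% and from 33.1% to 71.2%.

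Of 7 CDK inhibitors, 6 were measured, with 5 called higher in WT and 3 in Y36C. This and the 2 counts that follow are read against the same 71.7% and 45.9% of all genes called higher, with 7.36% lower in WT. CDKN1B, which encodes p27, rose in WT from 4.49% to 64.7%. CDKN1C was called in Y36C, from 6.00% to 18.3% (limma, adjusted p = 0.00317), and not in WT, at 5.95% and 11% (adjusted p = 0.0801), with no call for the interaction (adjusted p = 0.181). Of 10 genes of cyclin turnover, 8 were called higher and 1 lower in WT, and 4 higher in Y36C. FZR1, an activator of the anaphase-promoting complex, went from 4.05% to 63.6% in WT, whereas RBX1, a ring-finger subunit of cullin ligases, fell from 0.974% to 0.459%. Of 8 genes of the RB and E2F group, 7 were called higher and 1 lower in WT and 6 higher in Y36C. RBL2 was the one lower in WT, from 3.01% to 1.23%, and it was higher in Y36C, from 3.10% to 4.31% (limma, adjusted p = 0.0426).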

How the data were processed

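PolyA RNA of 24 samples was analysed, 6 in each of 4 groups named by the labels. The deposited values are percent spliced in (PSI, percent per splice site), made by the authors from STAR alignments to hg19 (per the labels, no version given), with a boundary row for unspliced reads. Read counts are not given in the sources used here, so depth is unknown, no intervals were computed, and the expressed PHF5A form was not checked. Of 1830076 rows per file, 1823643 were kept. PSI was converted to natural-log odds with an offset of 1 percentage point and tested with limma 3.58.1 (R 4.3.3), Benjamini-Hochberg adjusted over all rows, among 352424 rows in WT, 372780 in Y36C, 361441 in DMSO, 362001 in E7107 and 378553 for the interaction. Rows needed reads in all samples compared, and a group of 6 without any PSI of 0. Gene means needed 2 boundaries with reads in all 24 samples. Canonical transcripts, annotation and sequences came from GENCODE 44 lifted to GRCh37, read with Python 3.11.15, pandas 2.3.3, numpy 2.4.6 and pysam 0.24.0. The fits were tested on simulated data. Alternatives were an offset of 0.1, PSI as the response, no filter, a minimum change of 10 points, boundaries of one kind, canonical introns only and a replicate block. Named rows were, per gene, the largest boundary change, highest boundary in WT with DMSO, largest skipping increase, largest genotype difference and largest interactions; rows at the cyclin L alternative exons and further skipping junctions were added after their values were seen. The members and lists were chosen with earlier results of these data known.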

Additional observations from a re-analysis of the deposited data

Results flagged for a closer look

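In groups of 6 samples, 1 sample stood far from the others in 39 of 339 groups tested (11.5%), where chance gives about 1 in 20. Many of these were groups in which the other samples lay at or near 0%.

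Among boundaries with E7107 in WT, the highest sample stood apart at CCNE2 intron 11 donor (33.3%), CCNB2 intron 8 acceptor (14.3%) and CCND1 intron 3 acceptor (64.0%), and the lowest at CCNL2 intron 6 donor (60.8%) and CCNL1 intron 3 acceptor (91.2%). With DMSO in WT the highest sample stood apart for mean retention of CCND1 (1.53%), CCNB2 intron 5 acceptor (0.526%) and CCNL2 intron 9 donor (1.65%). In Y36C with DMSO it did so at the CCNB1 donor inside intron 1 (50%), CCNB2 intron 5 acceptor (0.441%), CCNB2 intron 4 acceptor (0.810%), CCND3 intron 1 acceptor (1.02%) and CCNL2 intron 9 donor (3.21%). In Y36C with E7107 it did so at CCNB2 intron 4 acceptor (0.909%), CCND1 intron 3 donor (1.49%) and CCND3 intron 1 acceptor (3.66%).

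Among spliced junctions in WT with E7107, the lowest sample of CCNT1 exon 5 to 8 skipping was at 23.7% at the donor. The highest stood apart for CCND1 exon 2 skipping (0.171%), the CCNL2 canonical junction of intron 5 (4.35% at the donor and 5.94% at the acceptor) and a CCNL1 junction from the alternative exon to exon 4 (0.416%). In WT with DMSO the highest sample stood apart for skipping of CCND1 exons 2 and 3 (0.175%), CCND1 exon 2 (0.222%), CCNA2 exon 7 (0.250% at the acceptor and 0.251% at the donor), CCNE1 exon 9 (16.1%) and CCNT1 exons 6 to 8 (0.971%). In Y36C with DMSO it did so for skipping of CCND1 exons 2 and 3 (0.0531%), CCNT1 exon 8 (1.25% at the donor and 1.11% at the acceptor) and CCNA2 exon 7 (0.487% and 0.512%), and for the CCNL1 alternative junction at the exon 10 donor (0.826%), while the lowest sample stood apart for CCND3 exon 4 (2.41%). In Y36C with E7107 the highest stood apart for skipping of CCNA2 exon 3 (1.65%), CCNA2 exon 7 (0.213% and 0.233%), CCNL1 exons 4 and 5 (0.794%) and CCNE1 exon 9 (16.7%).

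The effect of E7107 differed between the lines by the interaction (limma, log odds, negative where smaller in Y36C) for mean retention of CCNA2 (-3.70), CCNB1 (-1.43), CCNB2 (-1.21), CCND1 (-3.35), CCND3 (-2.03), CCNE1 (-3.45), CCNE2 (-1.64), CCNL1 (-2.27), CCNL2 (-3.16) and CCNT1 (-3.49). The interaction was positive, by signed log odds, for skipping of CCND1 exon 2 (0.77), CCNT1 exon 8 (1.02), CCNT1 exon 7 (2.95), CCNE1 exon 9 (0.98), CCND3 exon 4 (0.62), CCND3 exon 2 (1.13) and CCNB1 exon 8 (1.06). For CCNT1 exon 7 and CCNE1 exon 9 the E7107 effect was negative in WT and positive in Y36C. The WT effect on CCNE1 exon 9 was not called.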

How the results depend on the processing

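No result reversed. A minimum change of 10 percentage points left 3 skipping junctions called in WT, 4 boundaries and 3 junctions in Y36C, 4 junctions between the lines in E7107 and 4 for the interaction, since the smaller changes drop out. Other settings kept the counts of calls, both directions together, within 1.5 times, but the smaller offset left 4 in place of 7 junctions with an interaction larger in Y36C. With the replicate number as a block, 136 boundaries were called in WT, 15 in Y36C against 21 without it, 0 in DMSO, 136 in E7107 and 135 for the interaction. Junction calls under the block were 18, 8, 0, 22 and 21, and gene means 10, 5, 0, 10 and 10. Correlations of the deviations of samples with the same number were near 0 (from -0.0055 to 0.0059, 0 of 6 pairs over 0.1 in each pair of groups). Between WT with E7107 and Y36C with DMSO, 8 of 12 samples correlated best with their own number, against 0 to 5 of 12 in the other pairs of groups. Whether the numbers pair samples was not tested further. For single results, 14 calls were lost under the block, 12 with the smaller offset, 4 on PSI and 8 without the filter, and mean retention of CCNE1 in Y36C was not called from donor boundaries alone (adjusted p = 0.3). The cause was not tested. Depth is unknown, and sites with few reads, as in CCNE2, cannot be told from well covered ones.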
